A study of Homo sapiens with 9 samples.

Results

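The 36 genes described here are MYC, the dimerisation partner MAX and the MYC antagonist MXD4, together with 5 genes of RNA polymerase I and III transcription, 8 of small nucleolar ribonucleoproteins and nucleolar scaffolds, 6 of small subunit and 10 of large subunit assembly, and 4 of growth metabolism. They were taken from a list of MYC, nucleolar and polymerase genes, and membership required only that the gene be listed in all 9 tables. All 36 were among the 26636 genes common to the 9 tables, and all 36 were among the 13014 genes tested because they averaged 1 FPKM or more (fragments counted per kilobase of exon and scaled to library depth). Bulk RNA was sequenced from cells labelled BT549, a human breast cancer line known for a mesenchymal appearance. The 3 siWFDC21P-1 and the 3 siWFDC21P-2 libraries came from cells transfected with 1 of 2 siRNAs against WFDC21P, a pseudogene transcript, and the 3 siNC libraries came from cells given the control siRNA. All groups carried the wild-type genotype, received 5 µl of a 10 µM siRNA stock and were harvested 48 h later. The labels call the experiments triplicate without saying whether the libraries came from separate cultures. The p-values therefore measure only the spread between these libraries, part of which may be technical.

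MYC is a transcription factor that binds DNA as a dimer with MAX, preferentially at the E-box CACGTG, and many of its targets supply the parts of new ribosomes; MXD4 and its relatives bind MAX as well and repress the same sites. In the nucleolus RNA polymerase I makes the long ribosomal RNA precursor, which small nucleolar ribonucleoproteins modify and a series of assembly factors cuts and folds into the small and the large subunit. RNA polymerase III adds the 5S ribosomal RNA and the transfer RNAs, and polyamine and pyrimidine synthesis accompany this growth programme.

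The promoter windows that hold the MYC E-box are shown first, because they are the DNA letters through which MYC and MXD4 could reach the members. RefSeq promoters (250 bases before to 50 bases after the annotated start, GRCh38.p14) were matched by symbol for 28 of the 36 members, and MYC, POLR3G, POLR3D, NOP58, NOLC1, RRP12, BOP1 and RRS1 were not matched. CACGTG, which reads the same on both strands, was found in 10 of the 28 promoters (35.7%), against 2548 of 35116 promoters of the same length in the table (7.26%). The list was drawn up from MYC and nucleolar genes, so the higher share is not a result of these libraries. For each member only the first listed promoter of its symbol was used. The other count took every promoter of that length, whether or not the gene was expressed here. The windows below run 5′ to 3′ on the strand of the gene, with the E-box in capitals; the window of NOP2 ends with its promoter at 27 bases.
MXD4: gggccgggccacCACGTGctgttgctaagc
FBL: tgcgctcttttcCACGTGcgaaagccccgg
RRP9: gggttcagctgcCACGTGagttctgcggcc
UTP20: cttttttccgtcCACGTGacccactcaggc
WDR43: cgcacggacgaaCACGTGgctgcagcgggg
BYSL: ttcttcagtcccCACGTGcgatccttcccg
PNO1: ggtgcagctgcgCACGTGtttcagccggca
PES1: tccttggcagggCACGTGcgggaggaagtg
NOP2: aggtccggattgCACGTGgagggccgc
SRM: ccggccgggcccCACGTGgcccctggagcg
They lie at chr4:2262330-2262359 (minus strand) for MXD4, chr19:39846356-39846385 (minus strand) for FBL, chr3:51941892-51941921 (minus strand) for RRP9, chr12:101280083-101280112 (plus strand) for UTP20, chr2:28894658-28894687 (plus strand) for WDR43, chr6:41921515-41921544 (plus strand) for BYSL, chr2:68157885-68157914 (plus strand) for PNO1, chr22:30591880-30591909 (minus strand) for PES1, chr12:6568242-6568268 (minus strand) for NOP2 and chr1:11060200-11060229 (minus strand) for SRM. Counted from the annotated start, the first base of the E-box was at -238 in MXD4, -199 in SRM, -10 in UTP20 and -5 in RRP9. In WDR43, FBL, PNO1, PES1, BYSL and NOP2 it was at 3, 6, 9, 13, 28 and 35, inside the transcribed part. A match describes these letters and is not evidence of binding.

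The 9 libraries fell into 3 cell backgrounds that did not follow the siRNA groups, found by clustering on 12774 genes that excluded the members. Cells 1 held siWFDC21P-1 replicates 1 and 2 and siNC replicate 1, cells 2 held siWFDC21P-1 replicate 3 and the library labelled siNC replicate 2, and cells 3 held siWFDC21P-2 replicates 1 to 3 and siNC replicate 3. The Pearson correlation between libraries was 0.928 to 0.986 within a background and 0.655 to 0.740 between backgrounds. The summed level of 8 epithelial markers was 174 to 384 FPKM in cells 1, 1077 to 1677 FPKM in cells 2 and 7.01 to 10.2 FPKM in cells 3; for 8 mesenchymal markers it was 47.7 to 52.8, 7.17 to 13.2 and 501 to 673 FPKM. Within backgrounds the sums also differed between knockdown and control. The epithelial sum was 174 and 195 FPKM with siWFDC21P-1 against 384 FPKM with siNC in cells 1, and 1077 FPKM against 1677 FPKM in the library labelled siNC replicate 2 in cells 2, with the keratin gene KRT8 at 93.4 and 112 FPKM against 232 FPKM in cells 1. The mesenchymal sum in cells 3 was 532, 673 and 659 FPKM with siWFDC21P-2 against 501 FPKM with siNC. There the collagen gene COL1A2 was at 80.2, 272 and 224 FPKM with siWFDC21P-2 against 56.2 FPKM with siNC, and the intermediate filament gene VIM at 309, 162 and 178 FPKM against 310.4 FPKM. The part of these marker differences in the members' values was not tested. At 1 FPKM or more were 2 to 3 of the 8 epithelial markers in cells 1, all 8 in cells 2 and 2 to 3 in cells 3, and 3 to 4, 1 and all 8 of the mesenchymal ones. The mesenchymal cadherin gene CDH2 was at or near 0 in all libraries of cells 1 and cells 2, so that only cells 3 carried the full set expected of the labelled line; in cells 2 the epithelial gene EPCAM stood at 228 FPKM in siWFDC21P-1 replicate 3 and at 209 FPKM in the library labelled siNC replicate 2. Leukocyte markers summed to at most 8.86 FPKM in cells 1 and cells 3 and to 29.9 to 36.2 FPKM in cells 2, nearly all from CD14, and endothelial markers to at most 4.95 FPKM and to 20.1 to 26.1 FPKM, nearly all from KDR; the part of these differences in the results was not tested. Depth recovered from the values was 28.1 to 29.7 M reads in cells 1 and 2 and 16.3 to 17.4 M in cells 3. The target WFDC21P was at 2.04% and 24.9% of its control in the 2 siWFDC21P-1 libraries of cells 1 and at 60.2%, 48.3% and 30.8% in the siWFDC21P-2 libraries; in cells 2 it had 7 reads in the knockdown and 4 in the library labelled siNC replicate 2, so that its label could not be checked. Every change is therefore given against the single siNC library of the same cells, and changes in cells 2 rest on that label. FPKM is a share of a library: in bulk RNA fewer cells of a type and less RNA per cell cannot be told apart, and total RNA per cell was not measured.

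With control siRNA, the median member differed less across the 3 backgrounds than the median of the other tested genes. The ratio of the highest to the lowest of the 3 siNC libraries had a median of 1.79 over the members and was under 2 for 21 of 36 (58.3%). Over 12221 other tested genes above 0 in these libraries the median was 2.34 and 39.1% were under 2. These genes were not matched to the members in level, and their ratios reached 22629.8. Among the members, 17 were highest in siNC replicate 1, 5 in the library labelled siNC replicate 2 and 14 in siNC replicate 3. RRS1, which in yeast brings the 5S ribonucleoprotein into the large subunit, was the flattest member at 29.6, 28.4 and 26.8 FPKM in cells 1, 2 and 3 (ratio 1.10), followed by NOP58 (1.16) and PES1 (1.19). A same-strand gene shares 11.4% of the exon bases of RRS1. MYC itself was at 73.4, 71.1 and 94.5 FPKM, a ratio of 1.33. The farthest apart was POLR3D, a subunit of RNA polymerase III, at 5.08, 4.74 and 36.9 FPKM, a ratio of 7.78 with cells 3 high. PPAN, NOP2, LDHB, POLR1A and UTP20 followed with ratios of 4.57, 3.74, 4.29, 3.23 and 2.98. The ratios compare 1 library per background and have no replicate check.

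**Figure D1:**
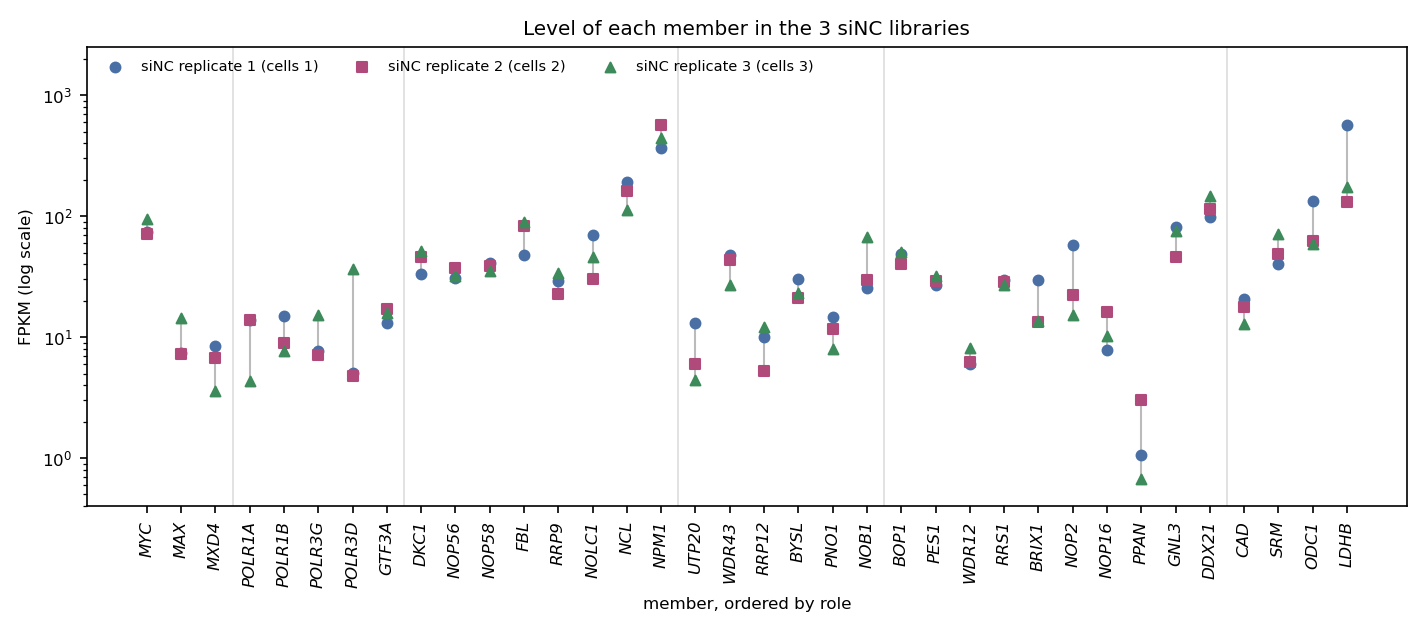
FPKM of each of the 36 members (log scale) in the 3 siNC libraries, 1 symbol per library and 1 cell background per library, with grey lines joining the lowest and the highest. Most members sit close together, whereas POLR3D spans 4.74 to 36.9 FPKM and LDHB spans 132 to 566 FPKM.

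The members are described within each background, and a difference between the backgrounds was not tested. Cells 1 and 2 received only siWFDC21P-1 and cells 3 only siWFDC21P-2, so that siRNA and background cannot be told apart, and each background rests on 1 siNC library. In cells 1 most members were above their control: 29 of 36 (80.6%) in siWFDC21P-1 replicate 1 and 27 of 36 (75.0%) in replicate 2, where 49.4% and 55.0% of all tested genes were above theirs. In cells 2 the same siRNA left 12 of 36 members (33.3%) above the library labelled siNC replicate 2, beside 53.9% of all tested genes. In cells 3 the counts were 16, 14 and 18 of 36 in siWFDC21P-2 replicates 1, 2 and 3 (44.4%, 38.9% and 50%), beside 47.1%, 53.2% and 53.8% of all tested genes. The median change of the members on the log2(FPKM + 1) scale was 0.53 and 0.25 in the libraries of cells 1, -0.17 in cells 2 and -0.01, -0.06 and 0.01 in cells 3, against 0.00, 0.05, 0.03, -0.01, 0.04 and 0.04 for all tested genes. After median-of-ratios scaling of the libraries the counts above control were 29 and 23 in cells 1 (80.6% and 63.9%, beside 48.6% and 48.4% of all tested genes). They were 10 in cells 2 (27.8%, beside 46.5%) and 18, 13 and 18 in cells 3 (50%, 36.1% and 50%, beside 48.0%, 51.1% and 53.0%). The 2 libraries of cells 1 share 1 control, as do the 3 of cells 3, so that the counts within a background are not independent.

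**Figure D2:**
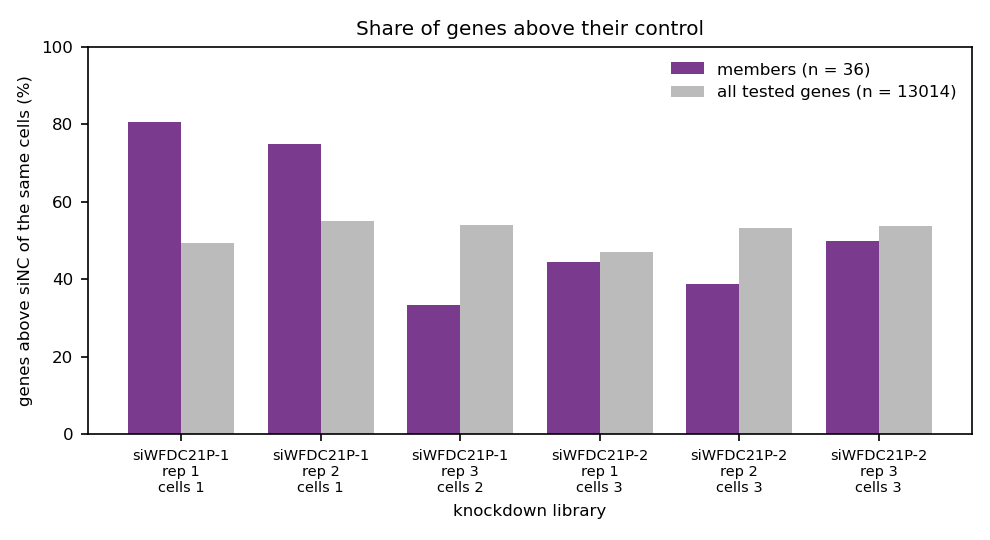
Share of genes (%) above the siNC library of the same cells in each knockdown library, for the 36 members and for all 13014 tested genes, 1 library per pair of bars. The members lie above all genes in the 2 libraries of cells 1 (80.6% and 75.0%) and below them in cells 2 (33.3%).

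The members with and without the E-box in the promoter window can be set side by side. Of the 10 with CACGTG, 9 were above control in each library of cells 1 and 2 were above control in cells 2, and 5, 4 and 7 were above control in siWFDC21P-2 replicates 1, 2 and 3. Of the 18 without it, 13 and 12 were above control in cells 1, 7 in cells 2, and 7, 7 and 8 in cells 3. The median fold over the library's own control was 1.48 and 1.21 in cells 1 for those with the E-box and 1.40 and 1.10 for those without, and 0.810 and 0.891 in cells 2. Of the 8 members without a matched promoter, 7 and 6 were above control in cells 1, 3 in cells 2, and 4, 3 and 3 in cells 3. Their median fold was 1.56 and 1.34 in cells 1, above that of both other classes, and 0.924 in cells 2. Of all tested genes, 49.4% and 55.0% were above control in cells 1, 53.9% in cells 2, and 47.1%, 53.2% and 53.8% in cells 3. The difference between the promoter classes was not tested.

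Of the MYC network, MYC had the widest range of folds of the 36 members. It stood at 224 and 186 FPKM with siWFDC21P-1 against 73.4 FPKM with siNC in cells 1, at 56.3 against 71.1 FPKM in cells 2, and at 101, 43.6 and 56.5 FPKM with siWFDC21P-2 against 94.5 FPKM with siNC in cells 3. These were 3.04-fold (95% counting interval 2.96 to 3.13) and 2.54-fold (2.46 to 2.61) in cells 1, 0.793-fold (0.763 to 0.824) in cells 2, and 1.07-fold (1.03 to 1.12), 0.462-fold (0.439 to 0.486) and 0.599-fold (0.571 to 0.627) in cells 3; the intervals are exact binomial intervals on recovered reads and cover counting error only. MYC was thus far above its control in both libraries of cells 1, below it in cells 2 and in siWFDC21P-2 replicates 2 and 3, and next to it in siWFDC21P-2 replicate 1. Over the groups it averaged 155 ± 87.8 FPKM with siWFDC21P-1, 67.2 ± 30.4 FPKM with siWFDC21P-2 and 79.6 ± 12.9 FPKM with siNC (SD, n = 3 each), and the siWFDC21P-1 range contained the siNC range. In the limma fit with the cell background in the model siWFDC21P-1 gave a log2 fold change of 0.69 ± 0.47 (SE), siWFDC21P-2 gave -0.57 ± 0.58, and the difference between the siRNAs was 1.27 ± 0.74. None passed (adjusted p = 0.552, 0.789 and 0.830). Without siNC replicate 1 the first value was -0.33, since it then rested on the cells 2 pair alone.

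MAX was 5.85 and 7.93 FPKM with siWFDC21P-1 against 7.42 FPKM with siNC in cells 1, 5.42 against 7.19 FPKM in cells 2, and 12.6, 11.5 and 13.0 FPKM with siWFDC21P-2 against 14.5 FPKM with siNC in cells 3. MXD4 was 9.91 and 14.3 FPKM against 8.40 FPKM in cells 1, 3.11 against 6.76 FPKM in cells 2, and 4.42, 3.87 and 3.96 FPKM against 3.57 FPKM in cells 3. MAX was thus below its control in 5 of 6 knockdown libraries, all but siWFDC21P-1 replicate 2, and MXD4 above it in all but the cells 2 pair, where it was at 0.460 of control. Neither passed in any contrast, with log2 fold changes of -0.21 ± 0.18 and -0.21 ± 0.22 for MAX and -0.13 ± 0.31 and 0.15 ± 0.39 for MXD4 with siWFDC21P-1 and siWFDC21P-2.

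**Figure D3:**
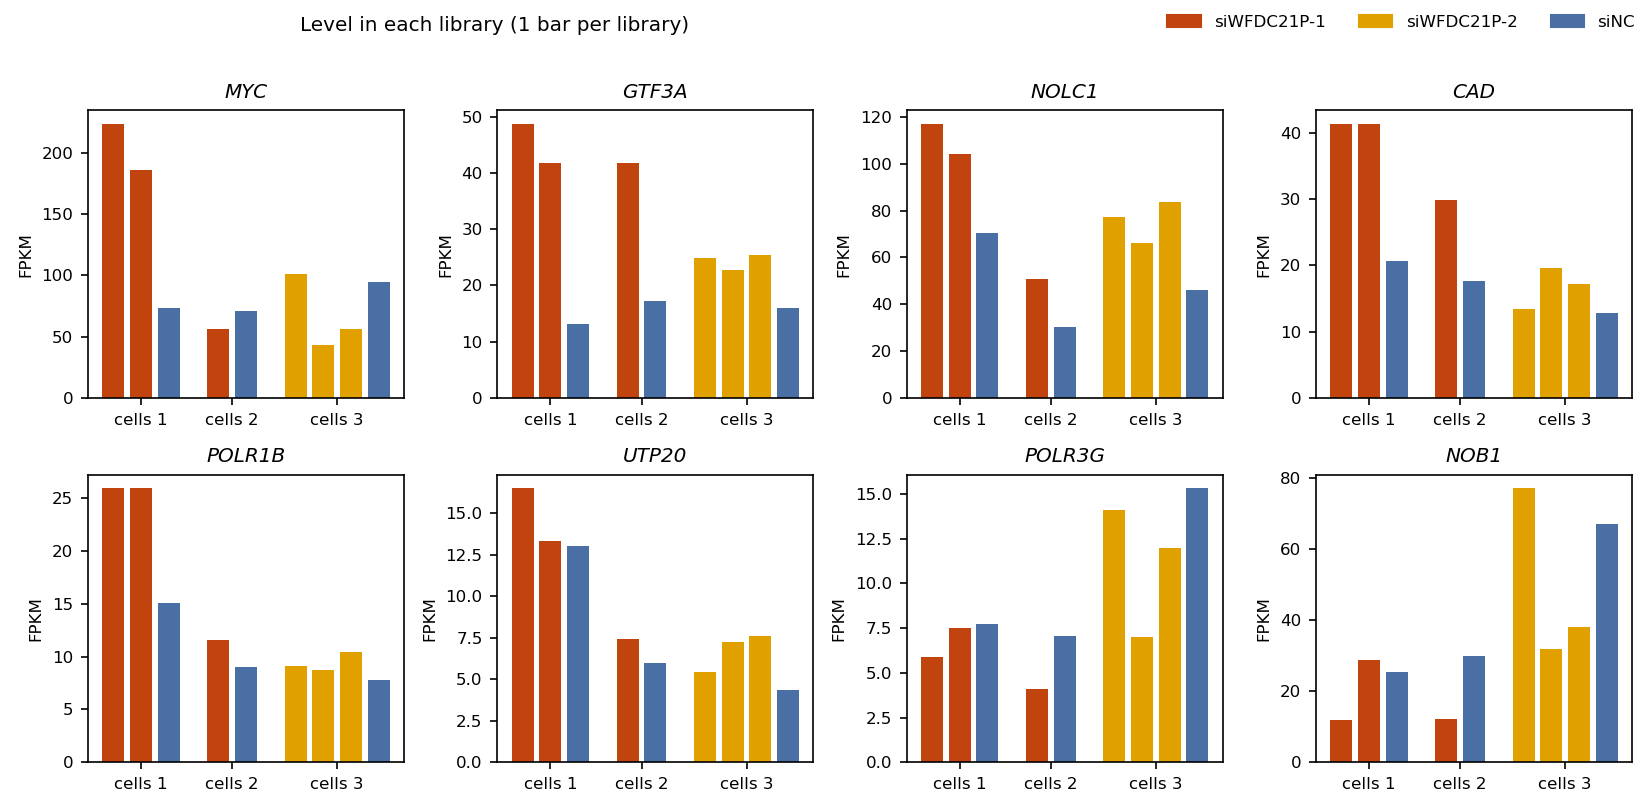
FPKM of 8 members in every library, 1 bar per library, grouped by cell background with knockdown libraries left of their siNC library. GTF3A, NOLC1, CAD, POLR1B and UTP20 stand above their control in all 6 knockdown libraries as deposited (UTP20 in all but siWFDC21P-1 replicate 2 after median-of-ratios scaling) and POLR3G below it, whereas MYC and NOB1 switch sides between libraries.

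In the polymerase group the gene with the clearest difference was GTF3A, which encodes TFIIIA, the zinc finger factor that brings RNA polymerase III to the 5S ribosomal RNA genes (chromosome 13, 27424544 to 27435823, plus strand, hg38). It stood at 48.7 and 41.8 FPKM with siWFDC21P-1 against 13.1 FPKM with siNC in cells 1, at 41.7 against 17.2 FPKM in cells 2, and at 24.9, 22.8 and 25.3 FPKM with siWFDC21P-2 against 15.9 FPKM with siNC in cells 3. All 6 knockdown libraries lay above all 3 siNC libraries, by 3.72-, 3.20- and 2.43-fold over the own control with siWFDC21P-1 and by 1.56-, 1.43- and 1.59-fold with siWFDC21P-2. The group means were 44.1 ± 3.98 FPKM with siWFDC21P-1, 24.3 ± 1.38 FPKM with siWFDC21P-2 and 15.4 ± 2.11 FPKM with siNC (SD, n = 3 each). On the log2 scale the change with siWFDC21P-1 was 1.51 ± 0.18 (SE), with siWFDC21P-2 0.58 ± 0.22 and with both pooled 1.14 ± 0.20, and it did not pass over all genes (limma, adjusted p = 0.0618, 0.756 and 0.106). The siRNAs differed by 0.93 ± 0.29 (unadjusted p = 0.0129, adjusted p = 0.830 in limma). Of its exon bases 6.03% are shared with MTIF3 on the other strand, and 4 annotated pseudogenes carry its name, so that some reads could be split between copies. It passed for siWFDC21P-1 when only genes of at least 5 FPKM were tested (adjusted p = 0.0401) and without siWFDC21P-2 replicate 1 (0.0342 for siWFDC21P-1 and 0.0486 pooled). Leaving that library out kept the siWFDC21P-1 change at 1.51, so that only the estimate of the spread differed. Over 18 settings the adjusted p of GTF3A for siWFDC21P-1 in limma ran from 0.0342 to 0.587.

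POLR1B, the second largest subunit of RNA polymerase I, was likewise above its control in all 6 libraries. It was 25.9 and 25.9 FPKM with siWFDC21P-1 against 15.0 FPKM with siNC in cells 1, 11.6 against 9.0 FPKM in cells 2, and 9.12, 8.73 and 10.4 FPKM with siWFDC21P-2 against 7.75 FPKM with siNC in cells 3. The folds ran from 1.13 to 1.72, smaller than the 1.94-fold range among the siNC libraries, and the pooled log2 fold change of 0.44 ± 0.14 did not pass (limma, adjusted p = 0.240). POLR1A, the largest subunit of the same enzyme, was 17.0 and 16.2 FPKM against 14.0 FPKM in cells 1, 14.5 against 13.8 FPKM in cells 2, and 4.32, 6.64 and 6.82 FPKM against 4.33 FPKM in cells 3. It was level with its control in siWFDC21P-2 replicate 1 and above it in the other libraries, by at most 1.58-fold.

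The RNA polymerase III subunits did not follow GTF3A. POLR3G, the variant subunit typical of dividing and undifferentiated cells, was 5.90 and 7.53 FPKM with siWFDC21P-1 against 7.73 FPKM with siNC in cells 1, 4.12 against 7.09 FPKM in cells 2, and 14.1, 6.99 and 12 FPKM with siWFDC21P-2 against 15.3 FPKM with siNC in cells 3. It was below its control in all 6 libraries, at 0.456 to 0.974 of it, with a pooled log2 fold change of -0.43 ± 0.22 (limma, adjusted p = 0.396). POLR3D was 7.0 and 9.07 FPKM against 5.08 FPKM in cells 1, 5.73 against 4.74 FPKM in cells 2, and 47.9, 25.9 and 24.6 FPKM against 36.9 FPKM in cells 3. It was above its control in the 3 siWFDC21P-1 libraries and in siWFDC21P-2 replicate 1, and below it in siWFDC21P-2 replicates 2 and 3.

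Among the small nucleolar ribonucleoprotein and scaffold genes, NOLC1 was the steadiest. It encodes a phosphoprotein that chaperones these particles between the Cajal body and the nucleolus (chromosome 10, 102152176 to 102163871, plus strand, hg38). NOLC1 stood at 117 and 104 FPKM with siWFDC21P-1 against 70.2 FPKM with siNC in cells 1, at 51.0 against 30.1 FPKM in cells 2, and at 77.1, 66.3 and 83.8 FPKM with siWFDC21P-2 against 46.2 FPKM with siNC in cells 3. It was above its control in 6 of 6 libraries, by 1.44- to 1.81-fold, although the groups overlapped across backgrounds. The log2 fold change was 0.69 ± 0.17 for siWFDC21P-1, 0.70 ± 0.21 for siWFDC21P-2 and 0.69 ± 0.13 for both pooled, with a difference between the siRNAs of -0.01 ± 0.27, and none passed (limma, adjusted p = 0.171, 0.756, 0.107 and 0.994). No other gene is annotated over its exons.

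DKC1, the pseudouridine synthase of the H/ACA particles, was 51.4 and 51.0 FPKM with siWFDC21P-1 against 33.2 FPKM with siNC in cells 1, 51.6 against 46.1 FPKM in cells 2, and 55.1, 50.6 and 54.2 FPKM with siWFDC21P-2 against 51.1 FPKM with siNC in cells 3. All 6 knockdown libraries lay between 50.6 and 55.1 FPKM, and the low value was that of siNC replicate 1. Its log2 fold change for siWFDC21P-1 was 0.42 ± 0.17 (limma, adjusted p = 0.339). Of the box C/D proteins, NOP56 was 40.9 and 32.9 FPKM against 30.6 FPKM in cells 1, 31.8 against 37.2 FPKM in cells 2, and 28.8, 31.9 and 32.1 FPKM against 32.3 FPKM in cells 3. NOP58 was 45.2 and 38.3 FPKM against 41.0 FPKM in cells 1, 30.6 against 38.4 FPKM in cells 2, and 32.9, 28.3 and 28.3 FPKM against 35.4 FPKM in cells 3. NOP58 was below its control in siWFDC21P-1 replicate 2, in cells 2 and in the 3 siWFDC21P-2 libraries. NOP56 was below its control in cells 2 and in siWFDC21P-2 replicate 1. In siWFDC21P-2 replicates 2 and 3 NOP56 was within counting error of its control (0.990 and 0.995 of it).

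FBL, the box C/D methyltransferase fibrillarin, was 2.00- and 1.19-fold over control in cells 1, 1.02-fold in cells 2 and 0.927- to 1.06-fold in cells 3, from siNC levels of 47.9, 83.0 and 88.7 FPKM. RRP9, which marks the U3 particle, was 2.09- and 1.42-fold in cells 1, 0.839-fold in cells 2 and 0.816- to 1.01-fold in cells 3. For both genes siWFDC21P-1 replicate 1 was the highest library relative to its control. The abundant scaffold gene NCL (nucleolin) was 281 and 227 FPKM against 190.5 FPKM in cells 1, 142 against 160.1 FPKM in cells 2, and 108, 122 and 119.7 FPKM against 112 FPKM in cells 3. NPM1 (nucleophosmin), the highest of the group, was 432 and 388 FPKM against 367 FPKM in cells 1, 418 against 563 FPKM in cells 2, and 474, 326 and 331 FPKM against 438 FPKM in cells 3. NPM1 is uncertain because 45 annotated pseudogenes carry its name. In the group as a whole 8 and 7 of 8 genes were above control in the libraries of cells 1, 3 of 8 in cells 2, and 4, 2 and 4 of 8 in siWFDC21P-2 replicates 1, 2 and 3.

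Small subunit assembly genes were above control in cells 1 for 5 and 6 of 6 members, in cells 2 for 2 of 6, and in cells 3 for 2, 2 and 3 of 6. UTP20, a large scaffold of the processome that cuts the small subunit from its precursor, was 16.5 and 13.3 FPKM with siWFDC21P-1 against 13.1 FPKM with siNC in cells 1, 7.41 against 5.97 FPKM in cells 2, and 5.41, 7.23 and 7.62 FPKM with siWFDC21P-2 against 4.38 FPKM with siNC in cells 3. It was above control in all 6 libraries, by 1.02- to 1.74-fold, but at 0.959 of control in siWFDC21P-1 replicate 2 after median-of-ratios scaling. WDR43, a processome part needed for transcription of the precursor, was 63.0 and 50.1 FPKM against 47.8 FPKM in cells 1, 33.9 against 43.5 FPKM in cells 2, and 20.3, 15.5 and 18.8 FPKM against 27.1 FPKM in cells 3. It was above control in cells 1 and below it in the other 4 libraries, and its log2 fold change for siWFDC21P-2 was -0.56 ± 0.27 (limma, adjusted p = 0.756).

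RRP12, an export factor of the small subunit, was 14.9 and 12.4 FPKM with siWFDC21P-1 against 10.0 FPKM with siNC in cells 1, 6.23 against 5.22 FPKM in cells 2, and 11.8, 8.86 and 9.48 FPKM with siWFDC21P-2 against 12.2 FPKM with siNC in cells 3. It was above control with siWFDC21P-1 and below it with siWFDC21P-2 in every library. NOB1, the endonuclease that trims the end of the 18S RNA, was 11.8 and 28.8 FPKM against 25.5 FPKM in cells 1, 12.2 against 29.9 FPKM in cells 2, and 77.1, 31.8 and 38.1 FPKM against 67.1 FPKM in cells 3. It was near 0.410 to 0.568 of control in 4 libraries, and slightly above control in siWFDC21P-1 replicate 2 and siWFDC21P-2 replicate 1. An antisense gene covers 20.2% of its exon bases. BYSL, which is needed for early small subunit processing, was within 0.746- and 1.11-fold of its control. PNO1, the partner of NOB1, ranged from 0.723-fold in cells 2 to 1.63-fold in siWFDC21P-1 replicate 1.

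Of the 10 large subunit assembly genes, 7 and 5 were above control in the libraries of cells 1, 1 was in cells 2, and 3, 3 and 4 were in cells 3. BOP1, PES1 and WDR12 form the PeBoW complex, which processes the precursor of the 28S and 5.8S RNAs. BOP1 was 1.62-, 1.36- and 0.925-fold over control with siWFDC21P-1 replicates 1 to 3 and 1.09-, 1.00- and 1.34-fold with siWFDC21P-2. PES1 was 49.2 and 47.1 FPKM against 27.0 FPKM in cells 1, 27.0 against 28.9 FPKM in cells 2, and 36.9, 32.1 and 34.2 FPKM against 32.2 FPKM in cells 3. WDR12 was 1.51-, 1.30- and 0.986-fold with siWFDC21P-1 and 0.819-, 0.905- and 0.898-fold with siWFDC21P-2. All 3 subunits were above control in both libraries of cells 1 and below it in cells 2.

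RRS1 was 48.3 and 39.2 FPKM against 29.6 FPKM in cells 1, 26.2 against 28.4 FPKM in cells 2, and 26.5, 33.6 and 39.9 FPKM against 26.8 FPKM in cells 3. BRIX1, a factor of early large subunit particles, was 27.8 and 26.5 FPKM against 29.5 FPKM in cells 1, 9.16 against 13.3 FPKM in cells 2, and 12.3, 10.6 and 12.6 FPKM against 13.7 FPKM in cells 3. NOP2, a methyltransferase of the 28S RNA, was 55.9 and 50.9 FPKM against 57.2 FPKM in cells 1, 17.0 against 22.4 FPKM in cells 2, and 12.9, 13.3 and 14.1 FPKM against 15.3 FPKM in cells 3. BRIX1 and NOP2 were below control in all 6 libraries, with pooled log2 fold changes of -0.25 ± 0.13 and -0.20 ± 0.12 (limma, adjusted p = 0.404 and 0.454). NOP2 shares 54.4% of its exon bases with a same-strand gene, so its level is uncertain.

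GNL3 (nucleostemin), a nucleolar GTPase of dividing cells, was 88.6 and 80.2 FPKM with siWFDC21P-1 against 80.6 FPKM with siNC in cells 1, 37.3 against 45.9 FPKM in cells 2, and 71.2, 48.9 and 54.1 FPKM with siWFDC21P-2 against 75.0 FPKM with siNC in cells 3. DDX21, an RNA helicase of the nucleolus, was 152 and 79.5 FPKM against 98.1 FPKM in cells 1, 130.0 against 115 FPKM in cells 2, and 122, 84.5 and 85.3 FPKM against 146 FPKM in cells 3. Both were lowest against their control in siWFDC21P-2 replicates 2 and 3, at 0.581 and 0.586 for DDX21, and the 2 libraries of cells 1 lay on opposite sides of the control for DDX21. NOP16, a nucleolar factor of large subunit assembly, was 2.1- and 1.80-fold over control in cells 1, 0.893-fold in cells 2 and 0.988- to 1.48-fold in cells 3. The antisense genes ARL10 and HIGD2A cover 20% of the exon bases of NOP16. PPAN, the lowest member, whose yeast counterpart acts in large subunit assembly, was 0.324 to 3.04 FPKM over the 9 libraries, with as few as 14 reads in siWFDC21P-2 replicate 2, and it shares 59.8% of its exon bases with the readthrough gene PPAN-P2RY11 and with P2RY11.

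**Figure D4:**
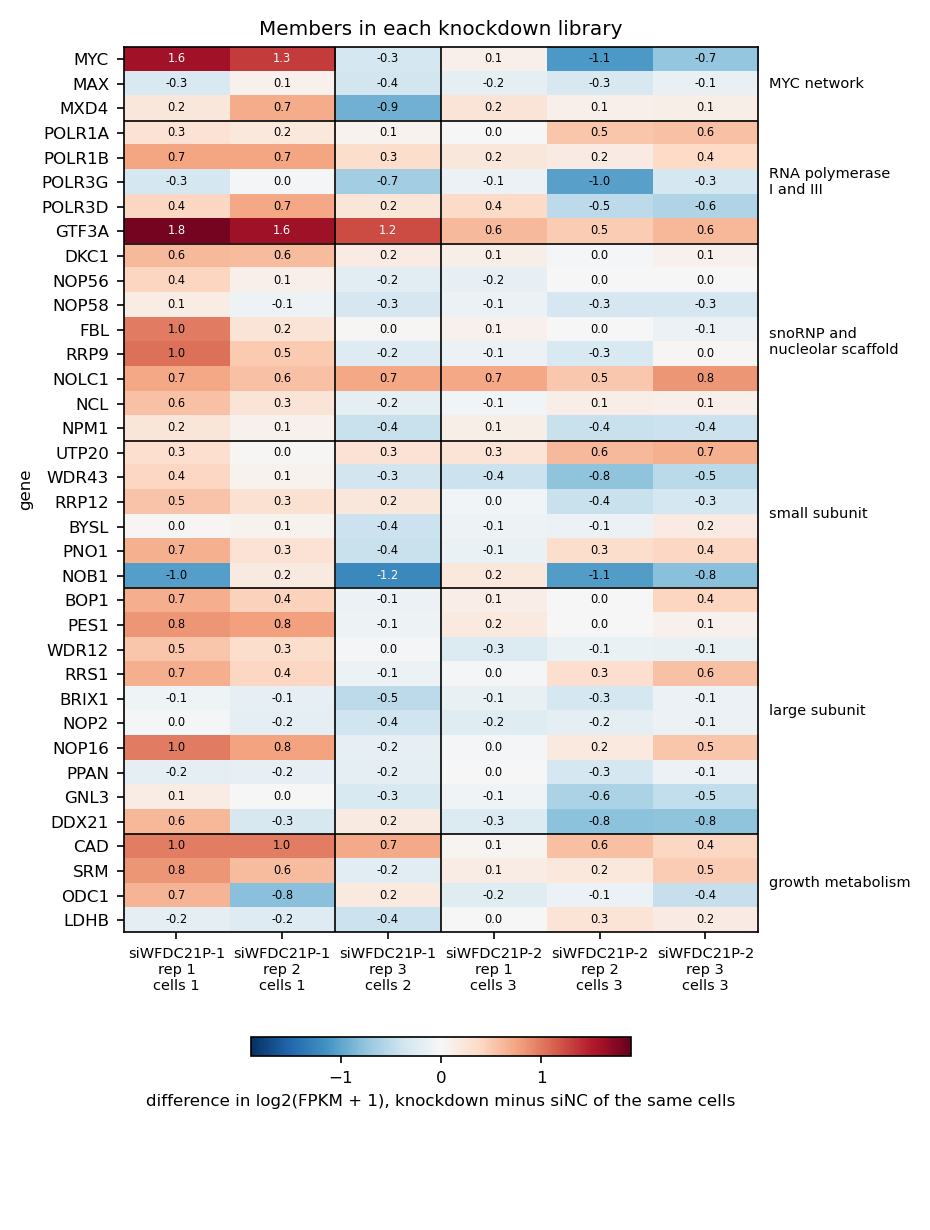
Difference in log2(FPKM + 1) between each knockdown library and the siNC library of the same cells, for the 36 members ordered by role (rows) and the 6 knockdown libraries (columns); red is above and blue below control. The columns of cells 1 are mostly red, that of cells 2 mostly blue with GTF3A, NOLC1 and CAD as its reddest entries, and those of cells 3 mixed.

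Of the growth metabolism genes, CAD, which carries the first 3 enzyme activities of pyrimidine synthesis, was above its control in every knockdown library (chromosome 2, 27217390 to 27243943, plus strand, hg38). It stood at 41.3 and 41.2 FPKM with siWFDC21P-1 against 20.6 FPKM with siNC in cells 1, at 29.8 against 17.6 FPKM in cells 2, and at 13.3, 19.5 and 17.2 FPKM with siWFDC21P-2 against 12.9 FPKM with siNC in cells 3. The 3 siWFDC21P-1 libraries lay above all siNC libraries, by 2.00-, 2.00- and 1.69-fold over the own control, whereas the siWFDC21P-2 libraries overlapped the siNC range. The log2 fold change was 0.86 ± 0.20 for siWFDC21P-1, 0.34 ± 0.24 for siWFDC21P-2 and 0.66 ± 0.17 pooled, and none passed (limma, adjusted p = 0.144, 0.756 and 0.196). Without siWFDC21P-2 replicate 1, whose levels lay next to its control, CAD passed for siWFDC21P-1 (adjusted p = 0.0463) and pooled (0.0492). The siWFDC21P-1 change itself stayed at 0.86. Over 18 settings the adjusted p of CAD for siWFDC21P-1 in limma ran from 0.0463 to 0.871.

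SRM (spermidine synthase) was 1.81- and 1.53-fold over control in cells 1, 0.857-fold in cells 2 and 1.11-, 1.15- and 1.40-fold in cells 3. ODC1, the rate-limiting enzyme of polyamine synthesis, was 209 and 75.7 FPKM against 133 FPKM in cells 1, 71.5 against 62.8 FPKM in cells 2, and 50.2, 54.5 and 43.2 FPKM against 59.0 FPKM in cells 3. Its 2 libraries of cells 1 lay on opposite sides of their shared control. LDHB, a lactate dehydrogenase subunit, was 504 and 478 FPKM against 566 FPKM in cells 1, 99.6 against 132 FPKM in cells 2, and 174, 210.0 and 194 FPKM against 174 FPKM in cells 3. A same-strand gene shares 33.4% of its exon bases.

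Counted over libraries, 10 of 36 members (27.8%) were above the control of their own cells in all 3 siWFDC21P-1 libraries, beside 27.9% of all tested genes, and 5 (13.9%) were below it in all 3, beside 20.7%. With siWFDC21P-2, 8 members (22.2%) were above control in all 3 libraries, beside 26.9% of all tested genes, and 12 (33.3%) below it, beside 26%. All 6 libraries were above control for 5 members (GTF3A, NOLC1, CAD, POLR1B and, before rescaling, UTP20; 13.9% beside 10.8%) and below it for 3 (POLR3G, BRIX1 and NOP2; 8.33% beside 7.92%). With all libraries in, these shares lie near the background, on either side of it. Sides were read from the value alone, and some lay within counting error. Examples are CAD in siWFDC21P-2 replicate 1 (1.04-fold, 95% counting interval 0.973 to 1.11) and POLR3G in siWFDC21P-1 replicate 2 (0.974-fold, 0.887 to 1.07). Without the 2 libraries of cells 2, 25 of 36 members (69.4%) were above control in both remaining siWFDC21P-1 libraries, beside 39.3% of all tested genes, against 10 members with cells 2 included. These 2 libraries share 1 control. Without siWFDC21P-2 replicate 1, 14 members (38.9%) were above control in both remaining siWFDC21P-2 libraries, beside 46.2% of all tested genes, against 8 members with it included. When cells 2 were left out, 8 members (22.2%) were above control in all 5 remaining knockdown libraries, beside 14% of all tested genes, against 5 members in all 6.

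No member passed an adjusted p of 0.05 in the limma fit over all 13014 genes, in which group and cell background were terms. For siWFDC21P-1 3 genes passed (0.0231% of those tested), for siWFDC21P-2 none (0%), for both siRNAs pooled 1 gene (0.00768%) and for the difference between the siRNAs none (0%). At an unadjusted p under 0.05, 5 members were higher with siWFDC21P-1 (GTF3A, CAD, NOLC1, POLR1B and DKC1; 13.9% of the members beside 8.69% of all genes) and 0 lower (5.06% of all genes). With siWFDC21P-2 NOLC1 and GTF3A were higher (2 of 36, beside 2.89%) and 0 lower (2.35%), out of 682 such genes in all. Pooled, GTF3A, NOLC1, CAD and POLR1B were higher (4 of 36, beside 9.16%) and 0 lower (5.22%). For the difference between the siRNAs 703 genes had such a p, with GTF3A as the only member, and limma-voom on recovered reads called 0 genes in the siWFDC21P-2 contrast and 0 in the difference. The median log2 fold change of the 36 members was 0.16 for siWFDC21P-1, -0.04 for siWFDC21P-2 and 0.11 pooled, against 0.03, 0.02 and 0.03 over all tested genes. The siWFDC21P-1 median was -0.17 without siNC replicate 1, and 0.41 without the library labelled siNC replicate 2 or without siWFDC21P-1 replicate 3. The first of these medians rests on the cells 2 pair alone, and the second on cells 1 alone. Both siRNAs share 1 estimate of the spread. It comes from knockdown libraries of the same siRNA and cells. It also holds the difference between the siWFDC21P-1 changes in cells 1 and cells 2. No background had more than 1 siNC library, so the spread between controls of the same cells was not measured. The sole control behind the siWFDC21P-2 values is siNC replicate 3.

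Other genes of the same pathways, in 10 lists with 204 tested genes, were read from the same fit. Of 37 small subunit processome and maturation genes, 5 were higher and 0 lower pooled at an unadjusted p under 0.05, led by the helicase gene DHX37 (0.99 ± 0.17, adjusted p = 0.106 in limma), BMS1 (0.48 ± 0.16) and RIOK1 (0.39 ± 0.15), and the list's median was 0.03. Of 50 genes of large subunit assembly 3 were higher and 3 lower, among them SBDS (0.60 ± 0.17), DDX24 (0.50 ± 0.17) and NOC3L (-0.79 ± 0.28), with a median of 0.04. Of 12 RNA polymerase I genes UBTF, the upstream binding factor, was at 0.43 ± 0.17, the initiation factor gene RRN3 at -0.35 ± 0.14 and the termination factor gene TTF1 at -0.28 ± 0.15, and the first 2 had an unadjusted p under 0.05. Of 18 RNA polymerase III genes 3 were higher and 0 lower, among them GTF3C6 (0.46 ± 0.18) and POLR3GL (0.40 ± 0.17), POLR3GL encoding the alternative to POLR3G. None of the 10 small nucleolar ribonucleoprotein factors reached that level, with RUVBL2 at 0.36 ± 0.16, GAR1 at 0.25 ± 0.15 and TGS1 at -0.19 ± 0.12.

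Among 11 other genes of the wider MYC network, MXD3 was at 0.87 ± 0.24, MLXIP at 0.31 ± 0.13 and MXD1 at -1.32 ± 0.40. Each had an unadjusted p under 0.05 and an adjusted p of 0.208, 0.319 and 0.239 in limma. MXD3 and MXD1, both relatives of the antagonist MXD4, thus lay on opposite sides. MXD3 was above its control in all 6 libraries, by 1.24- to 3.70-fold. MXD1 was 1.37 and 3.30 FPKM with siWFDC21P-1 against 4.36 FPKM with siNC in cells 1, 2.85 against 10.7 FPKM in cells 2, and 5.39, 1.09 and 1.03 FPKM with siWFDC21P-2 against 8.38 FPKM with siNC in cells 3. It was below its control in all 6 libraries. Of 16 genes of the RNA exosome and RNA trimming 1 was higher (ISG20L2, 0.49 ± 0.12) and 1 lower (EXOSC1, -0.48 ± 0.17), and C1D was at -0.24 ± 0.13. Of 20 genes of polyamine and nucleotide synthesis and lactate PFAS was higher (0.50 ± 0.16) and SAT1 and SMOX, which break polyamines down, were lower (-0.84 ± 0.26 and -0.37 ± 0.16). Of 17 S phase and mitosis markers 5 were higher and 0 lower, with AURKB at 0.87 ± 0.28, BUB1 at 0.66 ± 0.22 and TOP2A at 0.52 ± 0.18 and a median of 0.28, and the part of cell division in the members' values was not tested. None of these genes passed an adjusted p of 0.05 pooled, and over all tested genes 9.16% were higher and 5.22% lower at the unadjusted level.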

How the data were processed

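The deposited values were FPKM per Ensembl gene for 9 libraries, 3 each of siWFDC21P-1, siWFDC21P-2 and siNC, calculated by the authors. The submitters' processing notes list Bowtie2 2.2.3, HTSeq 0.6.0, HISAT2 2.1.0 and the build hg38 without giving their roles. The strand setting is not given in the sources used here, so reads of overlapping antisense genes cannot be told apart. The tables came in 2 naming styles listing 34377 and 29104 genes, with 26636 in common, of which 26274 had a symbol.

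With GENCODE v29 exon lengths, 95.8 to 96.4% of the FPKM values worth under 20 reads were whole reads to within 0.02. This gave each library's depth, and recovered reads for 24684 genes (92.7%) and for 35 of the 36 members (not FBL). Intervals (95%) are exact binomial intervals on these reads and cover counting error only. No columns were left unmapped, and chi-square values of 16.9 to 458 per gene between libraries of a group showed none to be deposited in duplicate.

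Cell backgrounds came from average-linkage clustering on 1 minus Pearson r, split at a height of 0.15. Group and cell background were fitted to log2(FPKM + 1) with limma 3.58.1 under R 4.3.3 (trended empirical Bayes) over genes averaging 1 FPKM or more, and p-values were adjusted by Benjamini-Hochberg over all genes tested. Fold changes on this scale understate the change of low genes; folds per library are ratios of FPKM. Overlaps, coordinates and pseudogene names are from GENCODE v29 on hg38. The scripts were tested on simulated data. Python 3.11.15 made the summaries.

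The members, the cell backgrounds and the lists were chosen with earlier results of these data known. Values per library were to be given for MYC, MAX, MXD4, the 8 members with the smallest p for each siRNA and pooled, members on 1 side in all 6 knockdown libraries, the 6 largest and 3 smallest ratios among siNC libraries, and the highest and lowest of each role group; of each companion list up to 3 genes with the smallest pooled p. A gene that this rule would name is not reported here. Per-library values of MXD1 and CDKN1A, the folds of MXD3 and the folds of other members were added after values had been seen. Deviations from the group means correlated at -0.683 to 0.667 between equally numbered libraries. For siNC and siWFDC21P-1 these deviations still hold the cell background, which equally numbered libraries did not always share. Whether replicate numbers pair the libraries apart from the background could therefore not be told.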

Additional observations from a re-analysis of the deposited data

Results flagged for a closer look

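RRP12, an export factor of the small ribosomal subunit, was the 1 member whose siWFDC21P-1 libraries all lay above the siNC library of the same cells while its siWFDC21P-2 libraries all lay below theirs. The folds over the own control were 1.5, 1.25 and 1.19 with siWFDC21P-1 replicates 1 to 3 and 0.964, 0.726 and 0.776 with siWFDC21P-2 replicates 1 to 3. The difference between the changes was 0.60 ± 0.29 (SE) on the log2(FPKM + 1) scale and did not pass (limma, adjusted p = 0.830). The siWFDC21P-1 libraries belong to cells 1 and cells 2 and the siWFDC21P-2 libraries to cells 3, so that the siRNA and the cell background cannot be told apart in this difference. An antisense gene covers 6.09% of the exon bases of RRP12.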

How the results depend on the processing

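With siWFDC21P-1, the 3 genes passing became 0 with the naming style in place of the cell background, with the group alone, with the replicate block, without a filter on level and with median-of-ratios scaling, 1 with limma-voom on recovered reads and 26 among genes of at least 5 FPKM, where 1 listed member (GTF3A) passed. Leaving out 1 library at a time gave 0 to 153 genes and 0 to 2 members. With siWFDC21P-2, 17 genes passed without a filter, and leaving out 1 library gave 0 to 902. The members' median for siWFDC21P-2 was -0.087 with the group alone and -0.13 with the replicate block. Pooled, the 1 gene became 0 with the naming style, the group alone, the replicate block, no filter, median-of-ratios scaling, limma-voom and without both libraries of cells 2, and 2 with a pseudocount of 0.1. Leaving out 1 library gave 0 to 204 genes and 0 to 2 members pooled. For the difference between the siRNAs, 7 genes passed without a filter and 0 to 182 when 1 library was left out. The highest counts all came without siWFDC21P-2 replicate 1, which had 161 genes past a log2 difference of 1 from its control, against 1229 and 1105 in replicates 2 and 3. Members above control in all siWFDC21P-1 libraries numbered 25 without cells 2, in all siWFDC21P-2 libraries 14 without replicate 1, and in all 6 knockdown libraries 8 without cells 2, alternatives chosen after seeing the data. With no library left out, those counts of 10, 8 and 5 members became 7, 9 and 4 under median-of-ratios scaling.

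Signs turned for LDHB with siWFDC21P-1 (0.077 with the naming style, 0.29 with the group alone) and, with the group alone, for UTP20 (-0.072), CAD (-0.020) and POLR1A (-0.63) with siWFDC21P-2. Leaving out 1 library, MYC ranged from -0.33 to 1.46 with siWFDC21P-1 and from -0.48 to 0.69 pooled, and PES1 from -0.094 to 0.81 with siWFDC21P-1, with the lowest value in each case without siNC replicate 1. Without siNC replicate 1, cells 1 had no control. The siWFDC21P-1 values then rested on the cells 2 pair alone, and the pooled values on cells 2 and cells 3. The cause of the other sign changes was not tested. The siWFDC21P-2 values could not be estimated without siNC replicate 3. The replicate block changed no call among the members. The limits are 1 control per background, a label in cells 2 that WFDC21P cannot check, and lower depth in cells 3.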

Other observations

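The 13 stress response genes were read beside the members. With siWFDC21P-2 all 13 had a negative log2 fold change, with a median of -2.02, and 6 were lower at an unadjusted p under 0.05, beside 2.35% of all tested genes; none passed after adjustment (limma, smallest adjusted p = 0.756). With siWFDC21P-1 the median was 0.16, and CDKN1A, the inhibitor of cyclin-dependent kinases that MYC is known to repress, was the 1 gene of the list that passed (-2.42 ± 0.21, limma, adjusted p = 0.0442). For siWFDC21P-1 neither CDKN1A nor any other gene passed with median-of-ratios scaling, without a filter on level or with the replicate block. The same held with the naming style in place of the cell background and with the group alone. CDKN1A was 65.8 and 54.6 FPKM with siWFDC21P-1 against 324 FPKM with siNC in cells 1, 8.55 against 50.6 FPKM in cells 2, and 11.7, 7.52 and 10.1 FPKM with siWFDC21P-2 against 23.8 FPKM with siNC in cells 3. It was below its control in all 6 libraries, and a link between CDKN1A and MYC was not tested. Pooled, CDKN1A was at -1.95 ± 0.25 (adjusted p = 0.0969), GADD45A at -0.64 ± 0.23 (0.277) and HMOX1 at -1.54 ± 0.75 (0.387) in limma.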
